A study of Homo sapiens with 30 samples.

Results

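The interferon response genes followed here were a fixed list of 46 genes that cells switch on when interferon binds its receptor. They were found by gene symbol among 60675 rows of an RNA-seq count table, and all 46 were present. Members whose mean stayed under 0.5 CPM (counts scaled for library size) in each of the 13 groups were set aside, which left 40. Expression itself was not used to put a gene on the list, although the list was drawn up with earlier results of these data known.

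The cells were HT29, an established human colorectal adenocarcinoma line with epithelial features. Cultures were treated for 24 h with an ethanol extract of 1 of 4 traditional herbal formulas. Soshiho-tang and Yijin-tang at 20, 100 and 500 μg/mL (low, medium and high dose) were measured in 3 libraries per dose. Okbyeongpung-san had 2 libraries at each of the same doses, and Soyo-san had 1. The controls were 3 vehicle libraries, labelled as 0.1% DMSO, whereas the series' design text gives 2% DMSO. That text also says that an extract with a 20% inhibitory concentration below 500 μg/mL was used at that concentration and at dilutions of it, so the labelled doses may be nominal. The labels do not say whether libraries came from separate cultures, so p-values measure the spread between these libraries, which may be technical.

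Type I and type III interferons signal through the kinases JAK1 and TYK2 to the transcription factor complex ISGF3, which holds STAT2 and IRF9. ISGF3 enters the nucleus and binds the interferon-stimulated response element (ISRE) upstream of many genes. Interferon gamma works mainly through a different element (GAS) and induces IRF1, among others. Many of these genes are also expressed at a basal level in epithelial cells that have met no virus, and the intestinal epithelium is known for its response to type III interferon.

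Libraries held between 18477059 and 36162296 counts. The epithelial markers of HT29 were abundant: EPCAM was at 535 ± 2.36 CPM at the Soshiho-tang high dose against 532 ± 73.7 CPM in vehicle, and KRT8 was at 6562 ± 192 CPM against 6987 ± 532 CPM (SD, n = 3 each). The leukocyte, fibroblast and endothelial markers PTPRC, CD3E, DCN and CDH5 averaged 0.0281 CPM or less in the Soshiho-tang low, Soshiho-tang high and vehicle groups. Of the 4 markers of other cells that could be tested, 1 (PECAM1) was called higher and 2 (CD14 and COL1A1) lower at the Soshiho-tang high dose than in vehicle, and CD14 alone was called, lower, against the low dose. CD14 was at 1.87 ± 0.526 CPM at the Soshiho-tang high dose, 3.03 ± 0.498 CPM at its low dose and 2.82 ± 0.454 CPM in vehicle. In these bulk libraries, fewer cells expressing a gene and less RNA per cell cannot be told apart. The vehicle libraries stood apart from those of Soshiho-tang and Yijin-tang. A gene is said to be called where its adjusted p was below 0.05 (edgeR quasi-likelihood test, Benjamini-Hochberg over all genes tested). Over all genes, 2691 genes were called between the Soshiho-tang low dose and vehicle and 2697 between the Yijin-tang low dose and vehicle, but 0 between these low doses (339 genes at an unadjusted p below 0.05, 1 gene called by DESeq2). Counts of members called at the high doses are therefore given against the formula's own low dose as well as against vehicle. The share of counts from mitochondrial genes was 9.06 to 10.8% at the Soshiho-tang high dose, 10.8 to 12% at its low dose and 11.5 to 13.9% in vehicle, and its part in the results was not tested.

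The list was expressed at very unequal levels. Per kilobase of merged exon, and averaged over the 30 treated and vehicle libraries, ADAR (an editor of double-stranded RNA) had 31.5 CPM per kb. BST2 (tetherin, which holds budding virions at the membrane) had 30.5 CPM per kb, ISG15 (a ubiquitin-like modifier) had 19.2 CPM per kb and IFITM2 had 16.7 CPM per kb. At the other end, IFI44L had 0.0344 CPM per kb and MX2 had 0.0444 CPM per kb. In vehicle alone, BST2 came first at 32.7 CPM per kb, ahead of ADAR, and MX2 came last at 0.0333 CPM per kb with IFI44L at 0.0379 CPM per kb. The 6 members set aside were IFITM1, SAMD9L, XAF1, EPSTI1, RSAD2 and TRIM22. Their highest group means were between 0.148 CPM for TRIM22 and 0.448 CPM for IFITM1, while the members just above the limit reached 0.604 CPM for IFI44L and 0.774 CPM for HERC5. IFI44L cleared the limit through the low and medium doses of Soshiho-tang and the low dose of Okbyeongpung-san, not through any high dose. MX2 likewise reached it only at low and medium doses, and HERC5 reached it in 5 groups, neither at the Soshiho-tang high dose nor in vehicle, so these 3 entered through groups in which they were higher. The interferon genes themselves were near silent: IFNA1, IFNA2, IFNA5, IFNB1, IFNG, IFNK, IFNL1, IFNL2 and IFNL3 all stayed at group means of 0.194 CPM or less, and IFNE, an epithelial type I interferon, had 4.25 ± 0.444 CPM at the Soshiho-tang high dose, 5.06 ± 0.0982 CPM at its low dose and 4.11 ± 0.358 CPM in vehicle (SD, n = 3 each).

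The response genes fell at the high dose of Soshiho-tang. Against its own low dose, 31 of the 40 members were lower and 2 were higher at an adjusted p below 0.05, where 13.5% of the 15882 genes tested were lower and 13.3% were higher. The median log2 change was -0.53 over the members and -0.01 over all genes. Against vehicle, 22 members were lower and 2 were higher, where 18.3% of all genes were lower and 21% were higher, and the median was -0.33. Against its medium dose, 27 were lower and 2 were higher (median -0.37), where 11.4% of all genes moved in each direction (11.4% lower, 11.4% higher). The tested members under 2 CPM in every group were IFI44L, MX2, HERC5, CMPK2 and GBP1. With these also set aside, 27 were lower and 2 higher than the low dose, and 19 were lower and 2 higher than vehicle. The share of all genes at that limit was not taken. The comparisons share the high-dose libraries. The high dose was below both the low dose and vehicle for 20 members, where 9.57% of all genes were. The 2 higher members, IRF1 and SAMD9, were the same in all 3 comparisons, but IRF1 lost its call against the medium dose without high-dose library 1 or 2 or any 1 medium-dose library, at adjusted p-values from 0.067 to 0.16, and under DESeq2, at 0.062. Between the medium and the low dose of Soshiho-tang, 0 members were called, as were 0% of all genes (1 member at an unadjusted p below 0.05, 0 members and 0 genes called by DESeq2).

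**Figure D1:**
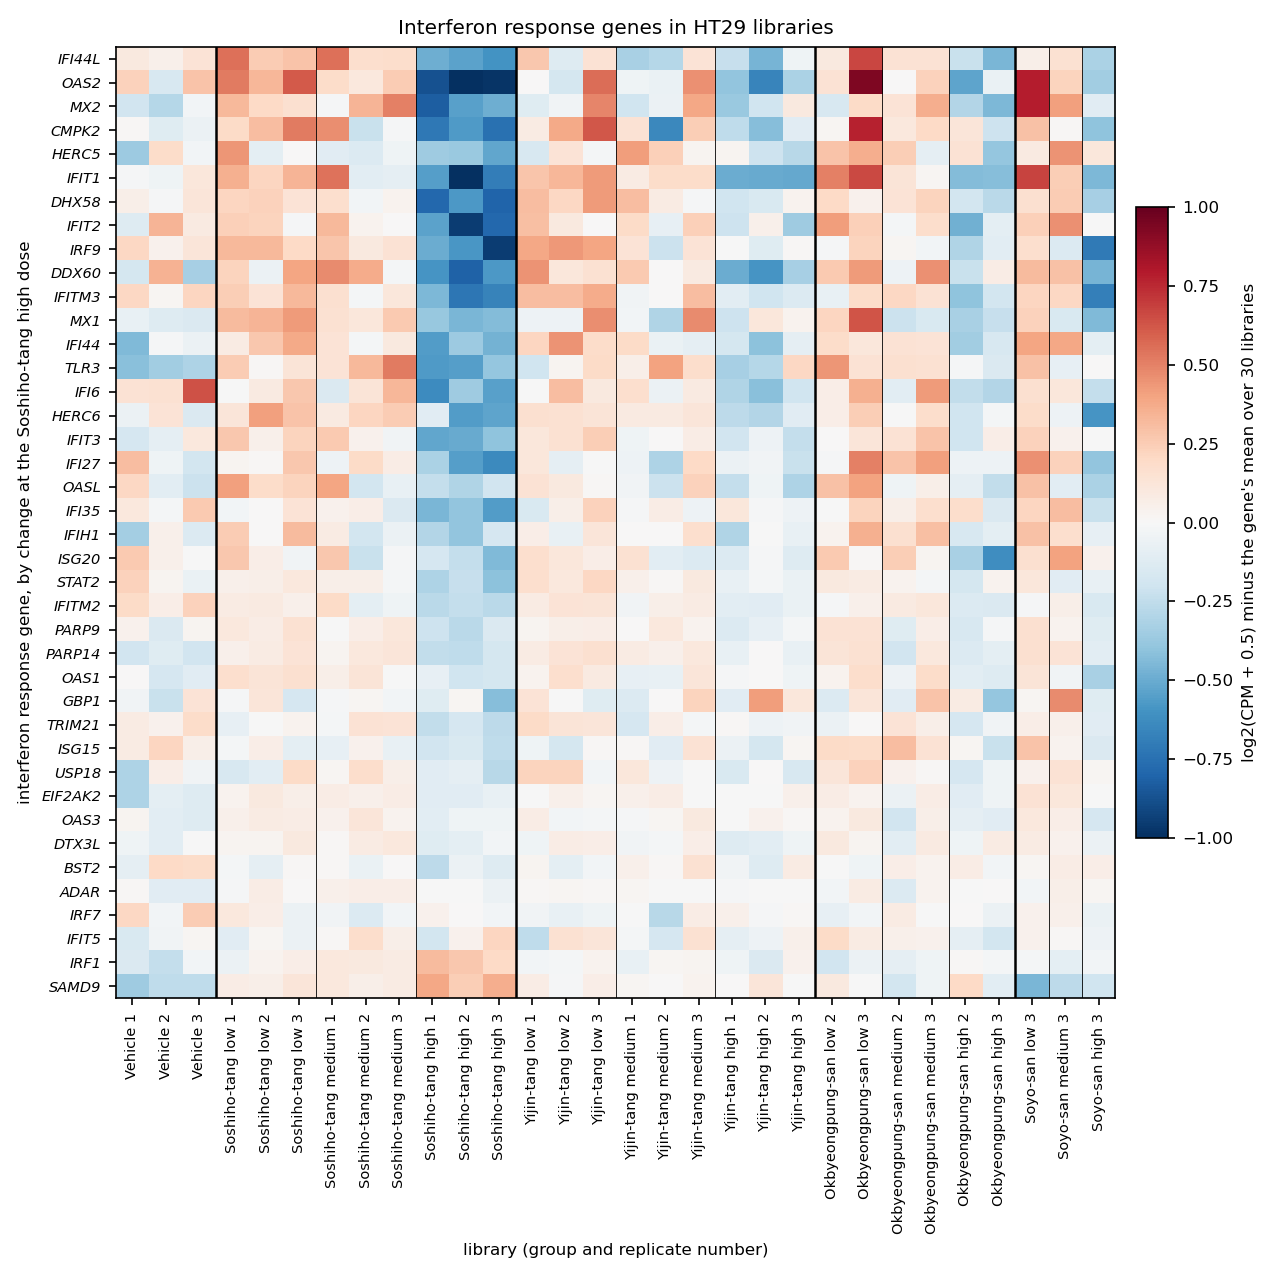
Level of each of the 40 members (rows, ordered by their change between the Soshiho-tang high and low dose) in each of the 30 libraries (columns), as log2(CPM + 0.5) minus the gene's mean over all libraries. Thick lines part the formulas and thin lines the doses. The 3 Soshiho-tang high-dose columns are blue in most rows. Rows at the bottom differ, among them IRF1 and SAMD9, which lie above their means, and IFIT5, IRF7 and ADAR, which lie near theirs.

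The ISRE is the sequence through which ISGF3 acts, so the promoters of the members were searched for its core, GAAANNGAAA, on both strands, in the 300 bases from 250 before to 50 after each gene's start (RefSeq, GRCh38.p14). A promoter was listed for 37 of the 46 members, and the first entry of each was searched. A match was held by 25 of them (67.6%), against 3.57% of all 35116 promoters. The share of all promoters counts every entry, also where a gene has several, so the shares are not of like units. Other starts of the members were not searched. Matches overlapped each other in 5 members. The GAS core, TTCNNNGAA, was in 11 of the 37 (29.7%), against 7.66% of all promoters, and overlapped an ISRE match in 4 of them. Among tested members, 18 of 23 with an ISRE match and 7 of 9 without one were lower at the Soshiho-tang high than low dose, with medians of -0.52 and -0.40. The regulators IRF9 and STAT2 had no match in this window. The 6 members with a match and the smallest adjusted p between the Soshiho-tang high and low dose are shown over the 250 bases before the start, on the gene's strand, with each ISRE match in capitals (TTTC pairs where the match is on the other strand).
IFITM3 (chr11:320861-321110, minus strand): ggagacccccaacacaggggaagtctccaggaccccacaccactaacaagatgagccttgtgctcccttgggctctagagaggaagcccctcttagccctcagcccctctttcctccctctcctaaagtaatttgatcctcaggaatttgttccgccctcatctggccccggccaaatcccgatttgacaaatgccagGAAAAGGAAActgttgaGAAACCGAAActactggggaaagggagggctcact
PARP14 (chr3:122680589-122680838, plus strand): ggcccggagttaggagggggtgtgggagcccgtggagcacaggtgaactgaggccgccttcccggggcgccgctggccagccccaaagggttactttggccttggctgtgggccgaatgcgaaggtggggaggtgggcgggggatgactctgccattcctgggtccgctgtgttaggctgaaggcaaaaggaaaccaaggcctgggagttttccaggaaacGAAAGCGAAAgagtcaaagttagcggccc
IFIT1 (chr10:89392373-89392622, plus strand): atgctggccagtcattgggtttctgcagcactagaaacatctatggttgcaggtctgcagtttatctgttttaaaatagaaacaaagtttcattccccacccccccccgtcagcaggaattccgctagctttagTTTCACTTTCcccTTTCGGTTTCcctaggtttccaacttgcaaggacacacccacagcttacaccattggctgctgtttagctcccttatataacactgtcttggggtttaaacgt
IFIT3 (chr10:89327747-89327996, plus strand): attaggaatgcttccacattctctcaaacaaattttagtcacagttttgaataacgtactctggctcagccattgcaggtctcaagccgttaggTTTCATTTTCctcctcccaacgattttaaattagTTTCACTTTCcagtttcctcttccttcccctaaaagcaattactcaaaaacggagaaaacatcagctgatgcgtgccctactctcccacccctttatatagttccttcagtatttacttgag
IFI44L (chr1:78620198-78620447, plus strand): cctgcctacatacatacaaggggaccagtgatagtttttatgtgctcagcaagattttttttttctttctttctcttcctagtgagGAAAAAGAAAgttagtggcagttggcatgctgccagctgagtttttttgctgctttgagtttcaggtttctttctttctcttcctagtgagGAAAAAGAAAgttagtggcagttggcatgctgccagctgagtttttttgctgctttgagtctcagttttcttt
IFI44 (chr1:78649539-78649788, plus strand): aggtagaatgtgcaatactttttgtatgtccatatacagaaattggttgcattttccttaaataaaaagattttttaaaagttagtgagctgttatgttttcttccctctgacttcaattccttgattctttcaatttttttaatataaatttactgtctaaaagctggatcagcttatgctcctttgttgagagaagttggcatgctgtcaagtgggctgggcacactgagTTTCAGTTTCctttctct
IFITM3 carried its matches 52 and 35 bases before the start, IFIT1 carried 2 on the opposite strand 116 and 103 bases before it, and IFI44L carried 2 copies of the same match, 164 and 73 bases before it. A match describes letters only. No binding was measured.

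IRF9, the DNA-binding subunit of ISGF3, had the smallest adjusted p of all members in the high against low comparison. It had 5.22, 4.89 and 3.67 CPM in the Soshiho-tang high-dose libraries, against 9.59, 9.58 and 8.74 CPM at the low dose and 8.8, 7.78 and 8.25 CPM in vehicle. The high-dose libraries were below every library of both other groups. The log2 change was -1.01 ± 0.11 against the low dose (adjusted p = 5e-08) and -0.82 ± 0.11 against vehicle (adjusted p = 8.9e-07; errors of log2 changes are SE throughout). STAT2, its partner, moved less: 15.1, 16 and 14.1 CPM at the high dose, against 19.6, 19.7 and 20.3 CPM at the low dose and 22.2, 19.2 and 18 CPM in vehicle. The groups did not overlap, and the change was -0.40 ± 0.07 against the low dose (adjusted p = 8e-05) and -0.37 ± 0.07 against vehicle (adjusted p = 8.1e-05).

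IRF1, a transcription factor best known as an interferon gamma target, went the other way. It had 33.8, 32.7 and 31.1 CPM at the Soshiho-tang high dose, against 26, 27.8 and 28.4 CPM at the low dose and 24.4, 22.9 and 26.5 CPM in vehicle, with no overlap. The change was 0.25 ± 0.06 against the low dose (adjusted p = 0.0015) and 0.43 ± 0.06 against vehicle (adjusted p = 6.8e-07). IRF7, which drives interferon alpha genes, had 24.3, 23.7 and 23.1 CPM at the high dose, against 25.4, 24.8 and 22.6 CPM at the low dose and 27.3, 23.2 and 28.2 CPM in vehicle. Its groups overlapped in both comparisons, with changes of -0.03 ± 0.07 (adjusted p = 0.79) and -0.12 ± 0.07 (adjusted p = 0.17), although without vehicle library 2 its adjusted p against vehicle was 0.015.

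**Figure D2:**
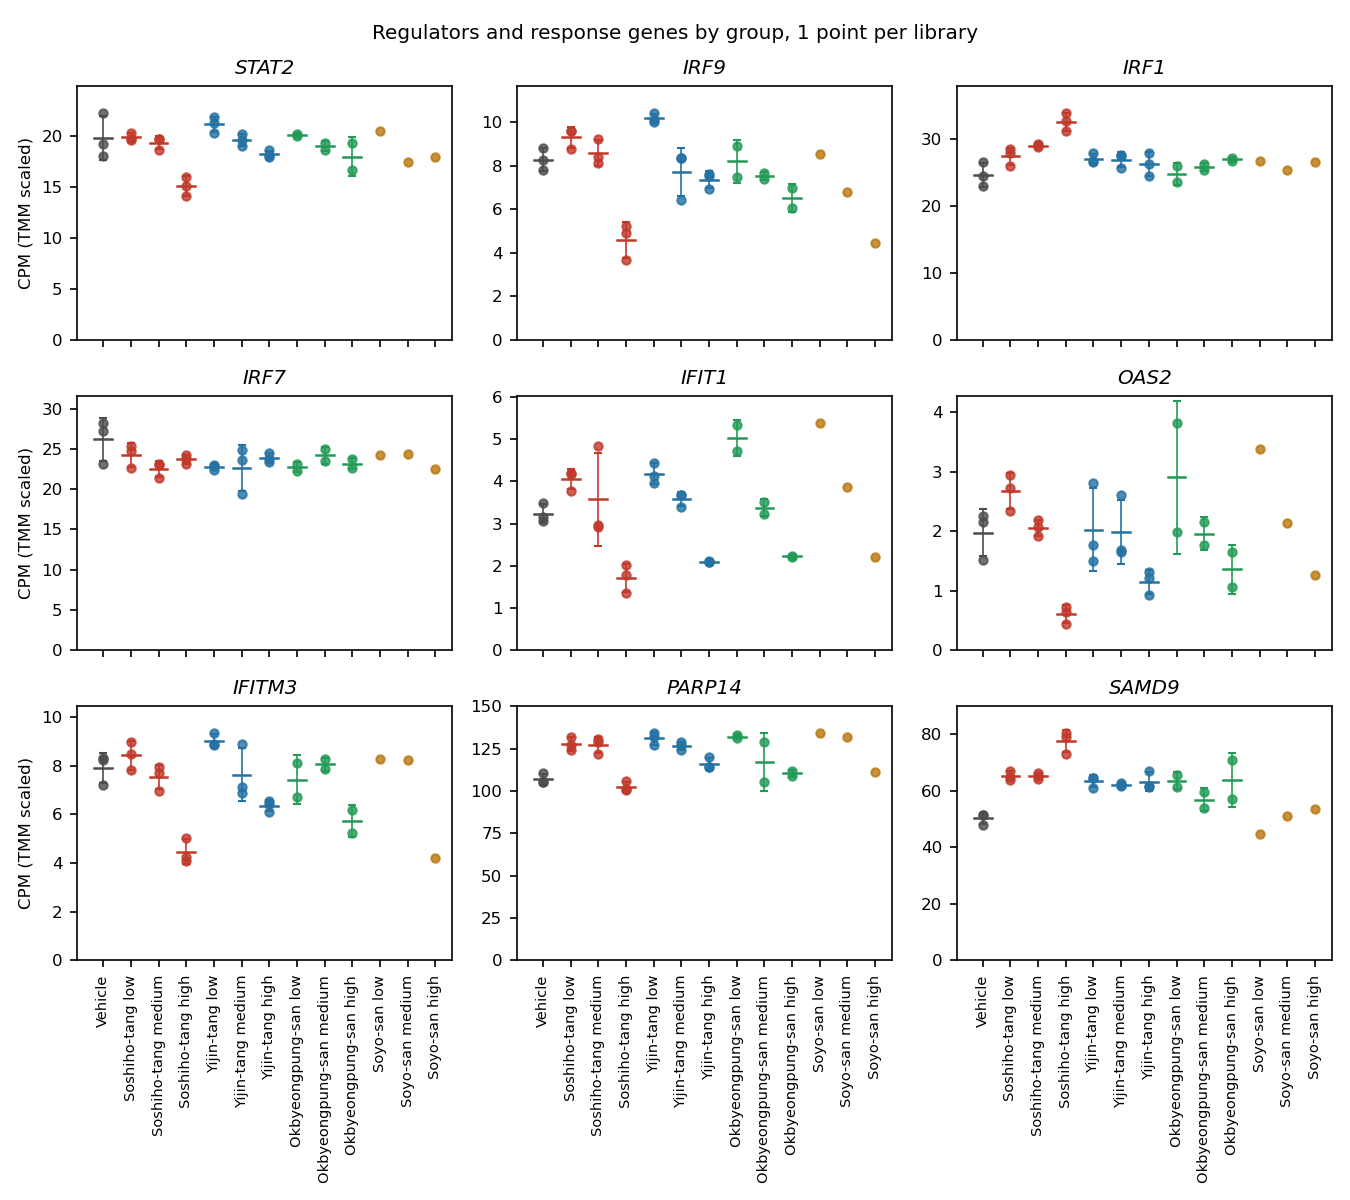
CPM of 4 regulators (STAT2, IRF9, IRF1, IRF7) and 5 other members in each group, with vehicle at the left and each formula from low to high dose. Points are libraries, horizontal lines are means and bars are SD, drawn where a group has more than 1 library. IFIT1 is lower at the high dose than at the low dose of each formula, and IRF1 and SAMD9 are highest at the Soshiho-tang high dose.

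The sensors of double-stranded RNA on the list fell as well. DHX58 (LGP2, a helicase that tunes RIG-I and MDA5) had 1.01, 1.24 and 0.991 CPM at the Soshiho-tang high dose, against 2.51, 2.55 and 2.36 CPM at the low dose and 2.21, 2.08 and 2.33 CPM in vehicle. Its high-dose libraries lay below all the others of the comparison, at -1.18 ± 0.17 against the low dose (adjusted p = 3.7e-06) and -0.99 ± 0.17 against vehicle (adjusted p = 2.4e-05). DDX60, a helicase linked to RIG-I signalling, changed by -1.01 ± 0.20 against the low dose (adjusted p = 0.00032) and -0.72 ± 0.20 against vehicle (adjusted p = 0.005). IFIH1 (MDA5) and TLR3, the endosomal receptor, were lower than the low dose, at -0.52 ± 0.12 (adjusted p = 0.0014) and -0.79 ± 0.19 (adjusted p = 0.002). Against vehicle IFIH1 stood at -0.13 ± 0.12 (adjusted p = 0.42) and TLR3 at -0.16 ± 0.19 (adjusted p = 0.54). TLR3 had 1.51, 1.53 and 1.78 CPM at the high dose, against 3.05, 2.51 and 2.76 CPM at the low dose and 1.73, 1.84 and 1.91 CPM in vehicle, so its high-dose and vehicle libraries overlapped.

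The IFIT genes encode proteins that bind foreign RNA ends and stall its translation. They lie side by side on chromosome 10 (IFIT2 from 89283694, IFIT3, IFIT1, and IFIT5 ending at 89421001, GENCODE 29 on GRCh38). IFIT1 had 2.01, 1.35 and 1.78 CPM at the Soshiho-tang high dose, against 4.21, 3.78 and 4.17 CPM at the low dose and 3.16, 3.07 and 3.49 CPM in vehicle. The groups were separate, and the changes were -1.26 ± 0.17 (adjusted p = 2.5e-06) and -0.91 ± 0.17 (adjusted p = 0.00014). IFIT2 changed by -1.08 ± 0.18 against the low dose (adjusted p = 4.2e-05) and -1.0 ± 0.18 against vehicle (adjusted p = 5.7e-05). IFIT3, which joins IFIT1 in a complex, changed by -0.71 ± 0.11 (adjusted p = 8.1e-06) and -0.43 ± 0.11 (adjusted p = 0.0017). IFIT5 had 4.81, 5.72 and 6.49 CPM at the high dose, against 5.07, 5.59 and 5.27 CPM at the low dose and 4.92, 5.39 and 5.59 CPM in vehicle. Its groups overlapped, at 0.09 ± 0.12 (adjusted p = 0.64) and 0.13 ± 0.12 (adjusted p = 0.43).

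The OAS enzymes make the oligoadenylate messenger that activates RNase L, and OAS1, OAS3 and OAS2 are neighbours on chromosome 12 (112906777 to 113011723). OAS2 had 0.732, 0.437 and 0.644 CPM at the Soshiho-tang high dose, against 2.73, 2.34 and 2.95 CPM at the low dose and 2.15, 1.52 and 2.25 CPM in vehicle. Every high-dose library was below the lowest of either group, at -2.17 ± 0.26 (adjusted p = 3.5e-07) and -1.71 ± 0.27 (adjusted p = 1.1e-05). OAS3, the most abundant of the 3 per kilobase, had 81.5, 85.2 and 85.3 CPM at the high dose, against 91.2, 93 and 92.7 CPM at the low dose and 89.5, 81.5 and 80.2 CPM in vehicle. It was lower than the low dose by a small margin, at -0.14 ± 0.05 (adjusted p = 0.028), and overlapped vehicle at 0.03 ± 0.05 (adjusted p = 0.66). That call for OAS3 was lost without high-dose library 1 or 2 or any 1 low-dose library, at adjusted p-values from 0.053 to 0.12. OAS1 was lower than the low dose too, at -0.31 ± 0.07 (adjusted p = 0.00075), and stood at -0.04 ± 0.07 against vehicle (adjusted p = 0.63). OASL, a relative without oligoadenylate synthesis, changed by -0.59 ± 0.16 (adjusted p = 0.0064) against the low dose and stood at -0.24 ± 0.16 (adjusted p = 0.24) against vehicle.

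IFITM proteins block the fusion of incoming virions with cell membranes. IFITM3 had 5.04, 4.08 and 4.26 CPM at the Soshiho-tang high dose, against 8.47, 7.81 and 8.97 CPM at the low dose and 8.24, 7.18 and 8.29 CPM in vehicle. There was no overlap, and the changes were -0.92 ± 0.11 (adjusted p = 1.8e-07) and -0.81 ± 0.11 (adjusted p = 7.7e-07). IFITM2 had 21.2, 21.7 and 21.3 CPM, against 27.2, 27.4 and 26.6 CPM at the low dose and 29.5, 26.9 and 30.3 CPM in vehicle, also with no overlap, at -0.34 ± 0.06 (adjusted p = 0.0002) and -0.41 ± 0.06 (adjusted p = 7.1e-06). The IFITM sequences are close copies and IFITM1 lies within the annotated span of IFITM2 on chromosome 11 (313506 to 315272), so the split of reads among them is uncertain. The GTPases MX1 and MX2, which trap incoming viral particles, were lower than the low dose at -0.90 ± 0.17 (adjusted p = 0.00024) and -1.93 ± 0.43 (adjusted p = 0.0012). Against vehicle MX2 was lower, at -1.17 ± 0.46 (adjusted p = 0.043), and MX1 stood at -0.34 ± 0.18 (adjusted p = 0.13). The MX2 call against vehicle was lost without high-dose library 1 or 2 or vehicle library 1 or 3, at adjusted p-values from 0.062 to 0.17, and under DESeq2, at 0.091. MX2 reached the level limit at low and medium doses only, so the limit favoured its fall from the low dose.

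Among the IFI genes, IFI44L had the largest log2 change of the list but very low counts, with 0.0916, 0.0729 and 0.0495 CPM at the Soshiho-tang high dose, against 0.717, 0.493 and 0.512 CPM at the low dose and 0.391, 0.359 and 0.413 CPM in vehicle. The groups were separate, at -2.91 ± 0.51 (adjusted p = 7.5e-05) and -2.33 ± 0.53 (adjusted p = 0.00088), and the wide errors go with the small counts. IFI44L cleared the level limit only through the Soshiho-tang low and medium doses and the Okbyeongpung-san low dose. The limit thus favoured its fall from the Soshiho-tang low dose. IFI6, a membrane protein that limits flavivirus replication, had 1.88, 2.37 and 2.03 CPM at the high dose, against 3.18, 3.41 and 3.94 CPM at the low dose and 3.57, 3.59 and 5.21 CPM in vehicle. Its changes were -0.74 ± 0.17 (adjusted p = 0.0017) and -0.93 ± 0.16 (adjusted p = 4.7e-05), with no overlap. IFI35 had 5.08, 5.32 and 4.71 CPM, against 7.04, 7.19 and 7.91 CPM at the low dose and 7.76, 7.06 and 8.7 CPM in vehicle. It too was separate, at -0.55 ± 0.11 (adjusted p = 0.00037) and -0.61 ± 0.11 (adjusted p = 4.3e-05). IFI27 was lower in both comparisons and IFI44 was lower than the low dose, at -0.84 ± 0.16 (adjusted p = 0.00016), with -0.32 ± 0.16 against vehicle (adjusted p = 0.12, or 0.018 without vehicle library 1).

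Members that attach or remove small modifiers split. ISG15 was lower than vehicle, at -0.30 ± 0.07 (adjusted p = 0.0017), and stood at -0.19 ± 0.07 against the low dose (adjusted p = 0.062, or 0.047 without low-dose library 3). HERC5, the ligase that attaches ISG15 in human cells, was lower than the low dose at -1.34 ± 0.42 (adjusted p = 0.018), and its relative HERC6 was lower in both comparisons, at -0.74 ± 0.12 (adjusted p = 2.8e-05) against the low dose. The HERC5 call was lost without high-dose library 3, at an adjusted p of 0.069, without low-dose library 1, at 0.14, and under DESeq2, at 0.07. HERC5 reached the level limit at the Soshiho-tang low dose but not at its high dose, so the limit favoured this fall. Against vehicle HERC5 was called only without vehicle library 1 among the libraries left out, at an adjusted p of 0.029, and HERC6 lost its call without high-dose library 2, at 0.091. USP18, which removes ISG15 and dampens receptor signalling, stood at -0.17 ± 0.15 (adjusted p = 0.45) against the low dose and -0.04 ± 0.15 (adjusted p = 0.92) against vehicle. PARP14, a macrodomain ADP-ribosyltransferase, had 101, 100.3 and 106 CPM at the Soshiho-tang high dose, against 124, 127 and 132 CPM at the low dose and 105, 110.3 and 105 CPM in vehicle. It was below every low-dose library and overlapped vehicle, at -0.32 ± 0.04 (adjusted p = 1.8e-06) and -0.03 ± 0.04 (adjusted p = 0.58). PARP9 and its partner ligase DTX3L, whose annotated ends overlap at 122564238 to 122564577 on chromosome 3, were lower than the low dose at -0.33 ± 0.06 (adjusted p = 7.7e-05) and -0.13 ± 0.04 (adjusted p = 0.027). TRIM21, a cytosolic antibody receptor and ubiquitin ligase, was lower in both comparisons, at -0.22 ± 0.07 (adjusted p = 0.017) and -0.32 ± 0.07 (adjusted p = 0.00035). Against the low dose, DTX3L had an adjusted p between 0.11 and 0.14 without high-dose library 1 or 2 or low-dose library 3. TRIM21 had one between 0.054 and 0.076 without high-dose library 1 or 3 or low-dose library 3.

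SAMD9, an antiviral factor that restricts poxviruses, was the clearest exception. It had 80.3, 73.1 and 79.1 CPM at the Soshiho-tang high dose, against 64.8, 63.9 and 67 CPM at the low dose and 48, 51.3 and 51.5 CPM in vehicle. All 3 groups were separate, at 0.25 ± 0.05 over the low dose (adjusted p = 0.0003) and 0.65 ± 0.05 over vehicle (adjusted p = 3.9e-11). ADAR had 304, 304 and 294 CPM at the high dose, against 303, 321 and 307 CPM at the low dose and 308, 283 and 282 CPM in vehicle, with overlap in both. EIF2AK2 (PKR, the kinase that halts translation on double-stranded RNA) had 101, 101 and 104 CPM at the high dose, against 112, 117 and 114 CPM at the low dose and 88.2, 102 and 99.7 CPM in vehicle. It was lower than the low dose, at -0.16 ± 0.04 (adjusted p = 0.0062), and stood at 0.10 ± 0.04 against vehicle (adjusted p = 0.067). ADAR, GBP1, IFIT5, IRF7 and USP18 passed the test in neither comparison. Without vehicle library 1 ADAR was called higher than vehicle, at an adjusted p of 0.0092, and without vehicle library 2 so was EIF2AK2, at 0.019.

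Members of lower level had larger falls. For the 34 members that averaged 2 CPM or more over 30 libraries, the log2 change between the Soshiho-tang high and low dose was set against level. Level here was the mean of the 13 group means of CPM, the high dose among them, so a fall in itself lowers the level. The Spearman rho was 0.70 over genes, a description of members measured in the same 6 libraries. It was not taken over all genes, so the trend may not be particular to these members. The 19 between 2 and 10 CPM had a median change of -0.74, and the 15 at 10 CPM or more had -0.16. The 6 members below 2 CPM are left out here, since 3 of them, IFI44L, MX2 and HERC5, cleared the limit on levels only through groups in which they were higher. The corresponding rho was 0.69 for Yijin-tang and 0.80 for Okbyeongpung-san. For the low dose of Soshiho-tang against vehicle it was -0.16.

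**Figure D3:**
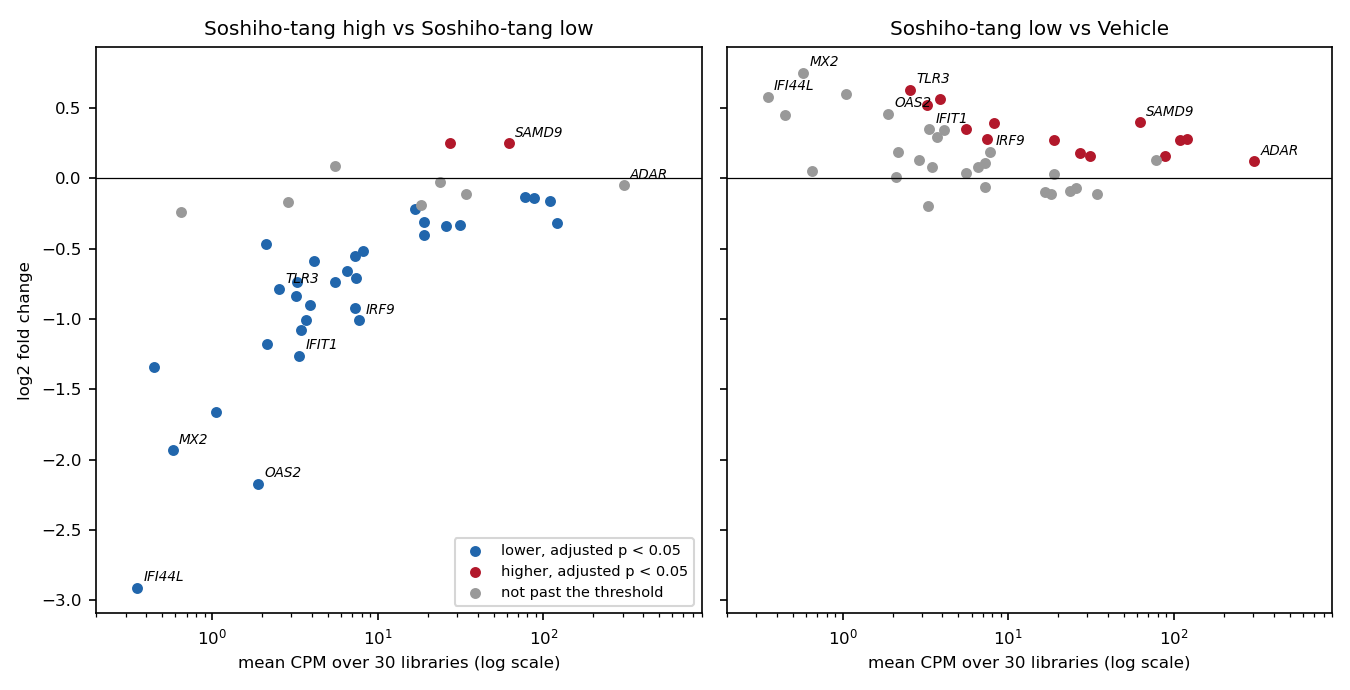
Log2 fold change of each of the 40 members against its mean CPM over 30 libraries (log axis), for the Soshiho-tang high dose against its low dose (left) and its low dose against vehicle (right). Colours mark the calls at an adjusted p below 0.05. All 40 are drawn, among them IFI44L, MX2 and HERC5, which cleared the limit on levels only through groups in which they were higher. Their low position at the left is therefore not part of the trend described in the text. At the right no member is called lower.

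Members called at the low and medium doses of Soshiho-tang went the other way relative to vehicle. At the low dose 14 members were higher and 0 lower, where 10.6% of all genes were higher and 6.34% were lower, with a median of 0.18. The Yijin-tang low dose also stood above vehicle (member median 0.15), and 0 members and 0 genes were called between these low doses. An effect of the extracts and a shift of the vehicle libraries cannot be told apart here. At the medium dose 8 were higher and 0 lower, where 11.1% were higher and 7.05% were lower, with a median of 0.14. PARP14, SAMD9, EIF2AK2, OAS1 and OAS3 had the smallest adjusted p at the low dose. PARP14 was 0.28 ± 0.04 above vehicle (adjusted p = 3.5e-05), and SAMD9 was 0.40 ± 0.05 above it (adjusted p = 3.1e-06), each with every low-dose library above every vehicle library. EIF2AK2 was 0.27 ± 0.04 above (adjusted p = 0.00012), OAS1 was 0.27 ± 0.07 above (adjusted p = 0.0045) and OAS3 was 0.16 ± 0.04 above (adjusted p = 0.013). OAS3 lost this call without any 1 low-dose library or without vehicle library 2 or 3, at adjusted p-values from 0.054 to 0.14. At the medium dose TLR3 was 0.88 ± 0.17 above vehicle (adjusted p = 0.00061). The count of 14 rests on single libraries: it was 4 without low-dose library 3, 8 without low-dose library 1, 9 without low-dose library 2 and 8 without vehicle library 3. It was 3 when only the 6 libraries compared were fitted.

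Yijin-tang moved fewer members. Its high dose against its low dose had 6 members lower and 0 higher, where 1.13% of all genes were lower and 0.724% were higher. The median change was -0.19 over the members and 0.00 over all genes. IFIT1 had 2.11, 2.1 and 2.08 CPM at the Yijin-tang high dose, against 3.97, 4.14 and 4.45 CPM at its low dose. These were separate, at -0.99 ± 0.16 (adjusted p = 0.00062). IFITM3 had 6.53, 6.1 and 6.4 CPM, against 8.86, 8.87 and 9.32 CPM, also separate, at -0.50 ± 0.10 (adjusted p = 0.0045). IRF9 had 7.54, 6.92 and 7.6 CPM, against 10.0, 10.4 and 10.1 CPM, at -0.46 ± 0.10 (adjusted p = 0.0085). DDX60 at -0.81 ± 0.19 (adjusted p = 0.017), IFI44 at -0.57 ± 0.15 (adjusted p = 0.04) and PARP14 at -0.17 ± 0.04 (adjusted p = 0.031) were also called. The count of 6 was 3 without high-dose library 1 or without low-dose library 2. Without high-dose library 1 the adjusted p was 0.1 for DDX60, 0.12 for IFI44 and 0.15 for PARP14, and without low-dose library 2 it was 0.051 for IRF9, 0.26 for IFI44 and 0.11 for PARP14. The IFI44 call was lost without any 1 of the 6 libraries. DDX60 was also not called without high-dose library 2 or low-dose library 1, nor PARP14 without high-dose library 3 or low-dose library 3.

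Against vehicle, the Yijin-tang high dose had 5 members lower (IFI6, IFIT1, IFITM2, IFITM3 and OAS2) and 3 higher (EIF2AK2, PARP14 and SAMD9), where 8.39% of all genes were lower and 12.7% were higher, with a median of -0.10. IFI6 was at -0.69 ± 0.16 (adjusted p = 0.0024), IFITM2 at -0.24 ± 0.06 (adjusted p = 0.0059), and SAMD9 at 0.36 ± 0.05 (adjusted p = 8.5e-06). Without high-dose library 2 the count of 8 was 5, with adjusted p-values of 0.077 for IFITM3, 0.082 for OAS2 and 0.13 for PARP14. These 3 calls were also lost without vehicle library 3, at 0.087, 0.077 and 0.085. IFITM3 and OAS2 lost theirs without vehicle library 1 or high-dose library 1 too, and IFITM3 without high-dose library 3. The medium dose had 5 members higher and 0 lower, where 11.1% were higher and 7.37% were lower. The low dose had 7 higher and 0 lower, where 10.3% were higher and 6.66% were lower. IRF9 was among the 7, at 0.32 ± 0.10 (adjusted p = 0.021), and lost the call without any 1 low-dose library or without vehicle library 2 or 3, at adjusted p-values from 0.052 to 0.092. The count of 7 was 3 without low-dose library 2 and 4 without low-dose library 3.

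Okbyeongpung-san, with 2 libraries a dose, had 1 member lower and 0 higher at its high than its low dose, where 0.311% of all genes were lower and 0.247% were higher. That member was IFIT1, with 2.22 and 2.24 CPM at the high dose, against 4.72 and 5.33 CPM at the low dose. The groups were separate, at -1.17 ± 0.16 (adjusted p = 0.005), and the call was lost without either high-dose library or without low-dose library 3, where it had an adjusted p between 0.069 and 0.14. The median change was -0.32 over the members and 0.00 over all genes, and 18 members had an unadjusted p below 0.05, as did 7.58% of all genes. At each dose replicate 2 is labelled as batch E and replicate 3 as batch D, so the numbers pair the doses. A block on the replicate number also puts vehicle library 3, labelled as batch E, with the batch D libraries. With that block, 3 members were lower: IFIT1 (adjusted p = 0.0055), MX1 at -0.80 (adjusted p = 0.046) and OAS2 at -1.09 (adjusted p = 0.047). With the batch as a term, chosen after seeing the data, it was IFIT1 alone, with an adjusted p of 0.012. All vehicle libraries are labelled as batch E, so the comparisons with vehicle set both batches against 1. Against vehicle the high dose had IFITM2 lower, at -0.29 ± 0.08 (adjusted p = 0.049), and SAMD9 higher, at 0.37 ± 0.09 (adjusted p = 0.032), where 2.19% of all genes were lower and 2.19% were higher. Without high-dose library 2 or vehicle library 3 that count of 2 was 0, and without high-dose library 3 it was 1. With the batch as a term it was 0, with adjusted p-values of 0.13 for IFITM2 and 0.063 for SAMD9. With the block, SAMD9 and IFI6 were called and IFITM2 had an adjusted p of 0.058. At the medium and low doses 0 members were called against vehicle, where 0.108% and 0.273% of all genes were called in either direction. At the medium and low dose 6 and 12 members had an unadjusted p below 0.05, as did 15.2% and 19.4% of all genes, and DESeq2 called 0 and 2 members. With the block, 1 member, MX1, was called higher than vehicle at the low dose (adjusted p = 0.049). Without vehicle library 1 or 2 the low dose had 6 and 7 members called. Shares of all genes with the block, with the batch term or with libraries left out are not given. Those counts are thus not set against other genes.

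All of Soyo-san is labelled as batch D, like replicate 3 of Okbyeongpung-san, and the other libraries as batch E. Within batch E, 32 of the 40 members were lower in the Okbyeongpung-san high than low library (median log2 difference -0.26), where 44.3% of genes were lower. Within batch D, 37 of 40 were lower for Okbyeongpung-san (median -0.34, 55.6% of genes) and 36 of 40 for Soyo-san (median -0.31, 53.4% of genes). These are differences between single libraries with no replicate check. Among the 40 are IFI44L and MX2, which reached the level limit at no high dose, and HERC5, which reached it in 5 groups. The limit thus favoured a fall at the high dose for IFI44L and MX2. Counts without these 3 were not made. In Soyo-san, IFIT1 was at 5.38, 3.87 and 2.2 CPM at the low, medium and high dose, OAS2 at 3.38, 2.13 and 1.27 CPM, and IRF9 at 8.55, 6.81 and 4.43 CPM. All 3 declined in dose order. SAMD9 had 44.6, 51.1 and 53.4 CPM in the same libraries, lower at each dose than in any library of Soshiho-tang or Yijin-tang.

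**Figure D4:**
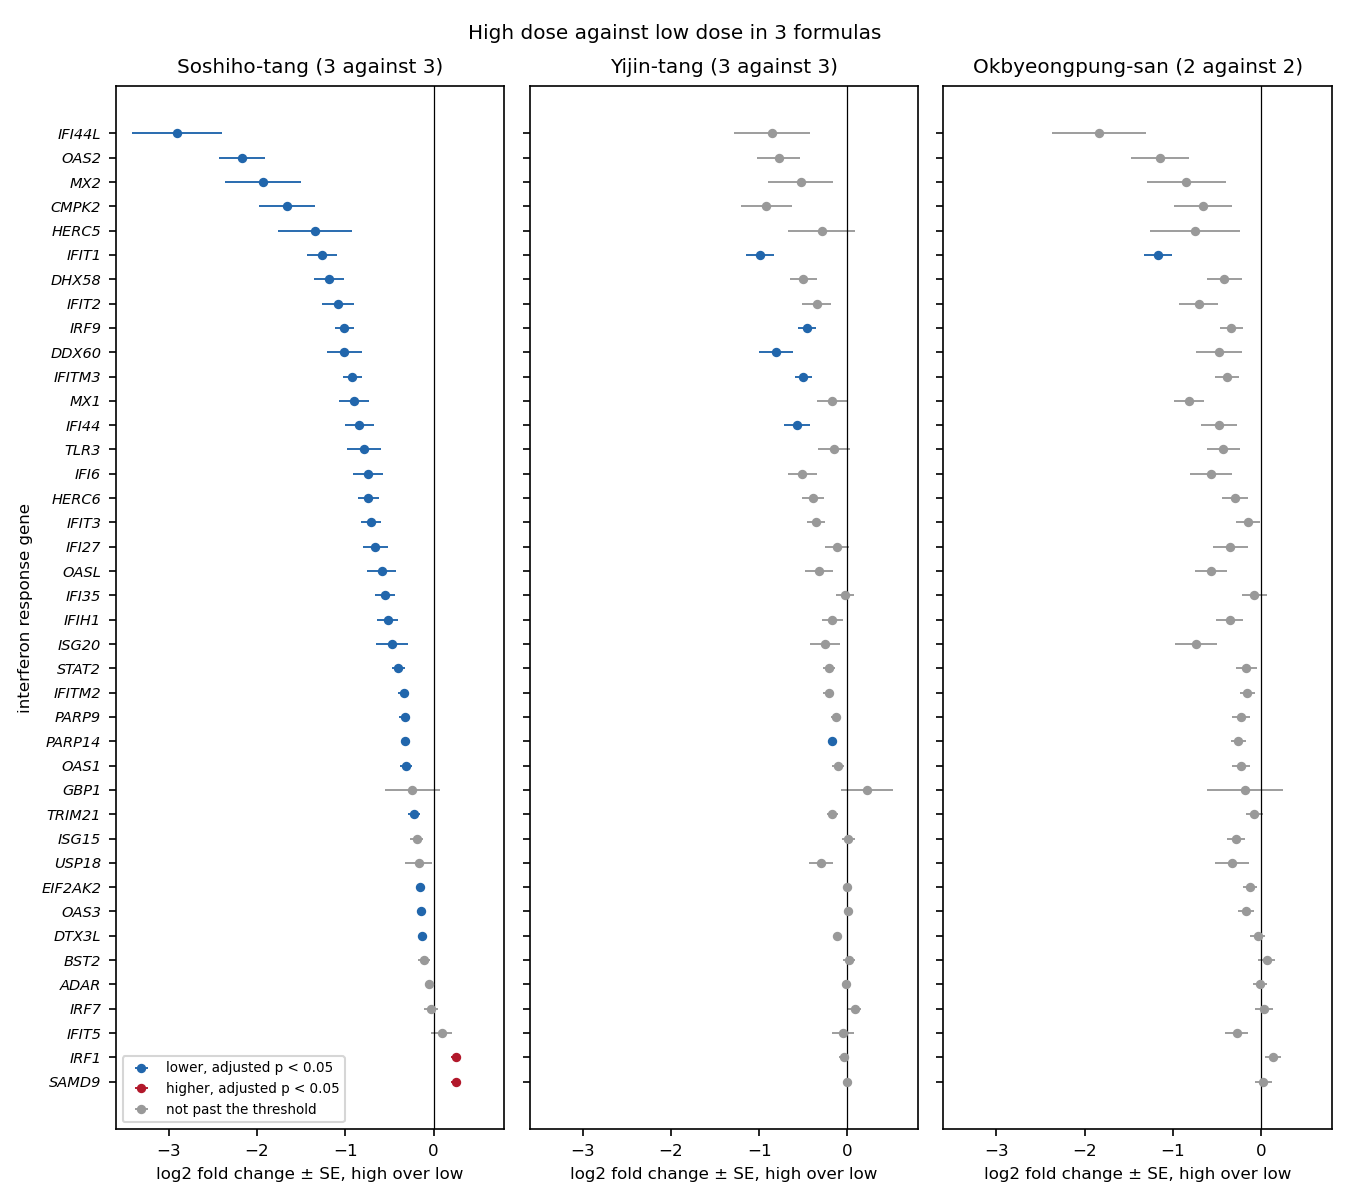
Log2 fold change with SE for each of the 40 members between the high and the low dose of Soshiho-tang, Yijin-tang and Okbyeongpung-san (columns), in the order of the Soshiho-tang changes. Blue and red points passed an adjusted p of 0.05. IFIT1 is past the threshold in all 3 columns. The medians of the columns are -0.53, -0.19 and -0.32, against -0.01, 0.00 and 0.00 over all genes. These medians include IFI44L, MX2 and HERC5, which cleared the limit on levels only through groups in which they were higher.

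The formulas were then compared at matched labelled doses. At the high dose, 10 members were lower and 2 were higher with Soshiho-tang than with Yijin-tang, where 6.38% of all genes were lower and 6.54% were higher, and the median was -0.24. IRF9 had the smallest adjusted p among the lower ones, with 5.22, 4.89 and 3.67 CPM under Soshiho-tang, against 7.54, 6.92 and 7.6 CPM under Yijin-tang. These were separate, at -0.68 ± 0.11 (adjusted p = 8.6e-05). DHX58 at -0.82 ± 0.17 (adjusted p = 0.0013), IFI35 at -0.53 ± 0.11 (adjusted p = 0.0011), IFITM3 at -0.52 ± 0.11 (adjusted p = 0.0016) and STAT2 at -0.27 ± 0.07 (adjusted p = 0.0097, or 0.064 without Soshiho-tang high library 3) were also lower. IFIT1 was at -0.31 ± 0.19 (adjusted p = 0.33). SAMD9 was higher, at 0.29 ± 0.05 (adjusted p = 9.1e-05), and so was IRF1, at 0.30 ± 0.06 (adjusted p = 0.00034). At the medium and low doses 0 members differed between Soshiho-tang and Yijin-tang, as did 0% of all genes (2 and 1 members at an unadjusted p below 0.05, and 0 members but 1 gene called by DESeq2 at each). A test of the difference between the 2 formulas' high minus low changes called 3 members lower and 2 higher, where 2.42% of all genes were lower and 2.15% were higher. They were OAS2, IRF9, IFI35, IRF1 and SAMD9. The count of 5 was between 0 and 3 when any 1 of the 12 libraries was left out.

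Genes around the list were counted in the same way, beside 18.3% of all genes lower and 21% higher than vehicle, and 13.5% lower and 13.3% higher than the low dose. Of 15 tested receptor, JAK-STAT and feedback genes, 2 were higher and 2 lower at the Soshiho-tang high dose than in vehicle, and 2 were higher and 1 lower than at the low dose. IFNGR1, a chain of the interferon gamma receptor, was higher in both, at 0.57 ± 0.042 over vehicle (adjusted p = 2.3e-11). IFNAR2, a chain of the type I receptor, was lower than the low dose, at -0.41 ± 0.12 (adjusted p = 0.013). Of 10 genes of RNA and DNA sensing, 3 were higher and 3 lower than vehicle, and 2 were higher and 2 lower than the low dose. Against vehicle CGAS, the cytosolic DNA sensor, was at 0.53 ± 0.066 (adjusted p = 3.5e-07) and its adaptor STING1 at -0.46 ± 0.086 (adjusted p = 0.0001).

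Of 15 antigen presentation genes, 1 was higher and 4 lower than vehicle, and 2 were higher and 2 lower than the low dose. Against vehicle TAPBP (tapasin, of the peptide-loading complex) was at -0.35 ± 0.055 (adjusted p = 1.1e-05), PSMB8 (an immunoproteasome subunit) at -0.45 ± 0.1 (adjusted p = 0.0008), and TAP2 (a subunit of the peptide transporter) at 0.30 ± 0.045 (adjusted p = 5.1e-06). Of 41 further interferon-stimulated genes, 4 were higher and 20 lower than vehicle (median -0.18), and 3 were higher and 20 lower than the low dose (median -0.16). PARP10, a mono-ADP-ribosyltransferase, was at -0.85 ± 0.12 against vehicle (adjusted p = 2.4e-06), and LGALS9, which encodes galectin 9, at -0.57 ± 0.069 (adjusted p = 1.5e-07). WARS1, a tRNA synthetase induced by interferon gamma, was higher, at 0.34 ± 0.042 (adjusted p = 2.8e-07). Epithelial markers shifted in the same libraries. Of 10 tested, 1 was higher and 4 lower than vehicle, and 3 were higher and 4 lower than the low dose. VIL1 (villin) was at 109.8 ± 5.77 CPM at the high dose, 161 ± 0.855 CPM at the low dose and 162 ± 7.82 CPM in vehicle. The part of these markers in the member changes was not tested.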

How the data were processed

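HT29 RNA was made into directional libraries and sequenced as 100 bp read pairs, per the labels' protocols. Expected counts per gene were deposited by the authors; the submitters' processing notes name FastQC 0.11.9, Trim Galore 0.6.5, STAR 2.7.3a, RSEM 1.3.3 and the builds hg38 and GRCh38, and the annotation release is not given in the sources used here. Counts were rounded and tested in edgeR 4.0.16 (R 4.3.3; TMM, filterByExpr, robust quasi-likelihood F-test, Benjamini-Hochberg over all genes). Vehicle, Soshiho-tang and Yijin-tang libraries shared 1 fit (15882 genes) and vehicle and Okbyeongpung-san another (15762 genes). Soyo-san has 1 library a dose and was not tested. CPM were TMM-scaled over 30 libraries. Totals were 18477059 to 36162296 counts. Of the 24 pairs of libraries within groups, none agreed as closely as counting error alone would give (chi-square over its degrees of freedom, 2.3 to 9.55 in treated groups and 10.3 to 18.6 in vehicle). Scripts were tested on simulated data. IDs were paired with symbols through GENCODE 29 and a table of gene names. Wortmannin, named in the design text, was not analysed here. Members and gene lists were chosen with earlier results of these data known. Named with values per library were the 10 members of smallest adjusted p against vehicle and against the low dose for the Soshiho-tang high dose, up to 5 in each other comparison, the 5 of highest CPM, STAT2, IRF1, IRF7 and IRF9, and up to 3 genes for each other list. Further members were named from their tests. Alternatives were RLE factors, DESeq2 1.42.0, no count filter, other sets of libraries, a replicate block, the batch as a term, a stricter threshold, a higher level limit and leaving out each replicate.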

Additional observations from a re-analysis of the deposited data

Results flagged for a closer look

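The change between high and low dose differed between Soshiho-tang and Yijin-tang for 5 members, by a test of the difference itself (edgeR interaction term, Benjamini-Hochberg over 15882 genes, 3 libraries in each of the 4 groups). The log2 difference, Soshiho-tang minus Yijin-tang, was -1.39 ± 0.37 (SE) for OAS2 (adjusted p = 0.023), -0.55 ± 0.15 for IRF9 (adjusted p = 0.03), -0.52 ± 0.15 for IFI35 (adjusted p = 0.042), 0.28 ± 0.08 for IRF1 (adjusted p = 0.038) and 0.25 ± 0.07 for SAMD9 (adjusted p = 0.034). All 5 lost the call when single libraries were left out: the adjusted p then reached 0.11 for OAS2 (without Soshiho-tang high replicate 2), 0.12 for IRF9 (without Soshiho-tang high replicate 3), 0.14 for IFI35 (without Yijin-tang low replicate 1), 0.12 for IRF1 (without Yijin-tang high replicate 2) and 0.096 for SAMD9 (without Yijin-tang high replicate 1). The direction of each was kept in all of these.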

How the results depend on the processing

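Of 154 calls of members over all comparisons, 95 held under every alternative that could test them, 59 were lost under at least 1 and 0 changed direction. For the Soshiho-tang high dose, 19 of 24 calls against vehicle and 28 of 33 against its low dose held throughout, and 6 of 23 values that were not called became called under at least 1 alternative. The share of all genes called under each alternative is not given here. The counts below therefore show only how far the calls depend on the setting, not how members compare with other genes. Counts of members called moved by over 1.5 times as follows, with the cause not tested unless fewer libraries or a stricter threshold is its construction. Fitting only the libraries compared gave 4 for the Soshiho-tang medium dose against vehicle, 3 for its low dose, 4, 3 and 2 for the Yijin-tang high, medium and low dose against vehicle, 12 for the Yijin-tang high against low dose, 0 for the Okbyeongpung-san high dose against vehicle, 8 for its high against low dose and 9 for the difference between formulas. An adjusted p below 0.01 gave 4 for the Soshiho-tang low, 4 for the Yijin-tang high and 4 for the Yijin-tang low dose against vehicle, 3 for the Yijin-tang high against low dose, 0 for the Okbyeongpung-san high dose against vehicle and 0 for the difference between formulas. No count filter gave 9 for the Soshiho-tang low dose, 4 and 7 for the Okbyeongpung-san high and low dose against vehicle and 3 for its high against low dose. All 30 libraries in 1 fit gave 7, 3 and 8 for the Okbyeongpung-san high, medium and low dose against vehicle, 4 for its high against low dose and 3 for the difference between formulas. DESeq2 gave 1 and 2 for the Okbyeongpung-san high and low dose against vehicle and 2 for the difference between formulas. Leaving Okbyeongpung-san medium library 2 out of the shared spread, chosen after seeing the data, gave 1 and 2 for its high and low dose against vehicle. With the batch as a term, also chosen after seeing the data, it was 0 for the Okbyeongpung-san high dose against vehicle. Same-numbered libraries did not deviate together (correlations from -0.0809 to 0.0941). Outside Okbyeongpung-san, where the number marks the labelled batch, nothing shows that the replicate numbers pair libraries. With the replicate block the counts were 24 and 33 for the Soshiho-tang high dose against vehicle and against its low dose. They were 1 for the Okbyeongpung-san low dose against vehicle and 3 for its high against low dose. That block put vehicle library 3, labelled as batch E, with the batch D libraries.

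Leaving out 1 replicate gave 20 to 26 for the Soshiho-tang high dose against vehicle, 6 to 10 for its medium dose, 4 to 11 for its low dose, 29 to 31 for its high against low and 25 to 29 for its high against medium dose. It gave 5 to 10, 4 to 6 and 3 to 9 for the Yijin-tang high, medium and low dose against vehicle and 3 to 4 for its high against low dose, 0 to 3 and 0 to 7 for the Okbyeongpung-san high and low dose against vehicle and 0 to 1 for its high against low dose, 8 to 11 for Soshiho-tang against Yijin-tang at the high dose, and 0 to 3 for the difference between formulas, where without Soshiho-tang low replicate 3 most of the 3 called were higher (2 higher, 1 lower) instead of lower. For the other comparisons it was 0. The shares of all genes are not given for these counts either. With 2 libraries a dose, leaving 1 out assumes that the lone library varies like the other groups. Members under 2 CPM had errors of log2 changes up to 0.53 between the Soshiho-tang high dose and vehicle, so their sizes are the least certain.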
